A study of Mus musculus with 4 samples.

Results

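The TRP channels, the intracellular calcium release channels and the calcium pumps of mouse glomeruli were examined in Gak-KO mice and their control littermates. The genes were chosen by symbol. They were the TRPC, TRPV and TRPM channels, STIM and ORAI proteins, IP3 receptors, ryanodine receptors, the SERCA and PMCA calcium pumps, the sodium-calcium exchanger Slc8a1 and the mitochondrial uniporter pore Mcu. In all, 39 such genes had a probe set annotated with that symbol alone, out of 22180 genes measured in the same way. Itpr1 was not analysed here. For a gene with several probe sets, the brightest on average was taken.

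Gak encodes a kinase that works with clathrin in endocytosis and vesicle uncoating. Gak-KO mice carried floxed Gak alleles together with a Cre transgene driven by the podocin promoter (Pod-Cre) and a floxed Rosa-Dtr allele, so that Gak was deleted in podocytes and in no other glomerular cell by design. The controls were Gak fl/fl littermates, and both groups were on the C57BL/6 background and were sampled at 3 weeks of age. Glomeruli were prepared from kidney cortex with magnetic beads and a density gradient, and RNA pooled from 3 mice was hybridized to each array, with 2 arrays for Gak-KO mice and 2 arrays for control mice. Arrays numbered 1 were labelled male and arrays numbered 2 female in both groups, and each Gak-KO array was set against the control array that shares its number, which gives pair 1 and pair 2.

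Free calcium in the cytosol is kept far below that outside the cell and inside the endoplasmic reticulum. Channels of the TRP families and the STIM and ORAI proteins let calcium in across the plasma membrane, IP3 and ryanodine receptors release it from the endoplasmic reticulum, and SERCA pumps, PMCA pumps, sodium-calcium exchange and the mitochondrial uniporter take it away again. In the kidney, TRPC6 is known from inherited podocyte disease, whereas TRPV5, TRPV6 and TRPM6 are channels of tubule epithelium that carry out calcium and magnesium reabsorption.

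The values are log2 signals, so that a difference of 1 is a doubling of signal, and signals of different probe sets cannot be ranked as RNA amounts. Cell type markers were read first. All 12 measured podocyte markers lay at or above the 53.8th percentile of signal, with Wt1 at 7.37 and 8.73 on the Gak-KO arrays and 7.38 and 8.57 on the control arrays. Tubule RNA was present as well, since the median proximal tubule marker lay at the 99.1st percentile. The median percentile was 99.3 for thick limb, 99 for collecting duct and 93.6 for distal tubule markers, against 84.5 for podocyte markers. Because signals of different probe sets cannot be ranked, these percentiles do not check the tissue label. Summed podocyte marker signal on the linear scale was 4225 and 9275 on Gak-KO 1 and 2, against 4322 and 7458 on control 1 and 2, and summed proximal tubule signal was 31826 and 14146 on the Gak-KO arrays, against 34626 and 20185 on the control arrays. Arrays 2 of both groups therefore had more podocyte signal and less proximal tubule signal than arrays 1. Gak itself read 8.64 and 8.39 on the Gak-KO arrays and 8.25 and 8.35 on the control arrays. Both Gak-KO arrays thus lay above both control arrays. These values do not check the labels, because other cells of the preparation keep the gene by design. The reason for the higher signal was not tested. Xist read 9.61 and 9.21 on the Gak-KO arrays and 9.69 and 8.55 on the control arrays, so it was higher on the arrays labelled male, against the sex labels. The array number, the sex label, any separate processing of the pairs and the cell makeup cannot be told apart. Fewer cells of a type cannot be told from less RNA per cell.

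Of the 39 genes, 1 was higher in Gak-KO glomeruli in both pairs and 0 were lower. The gene was Trpv5, the apical calcium channel of the distal convoluted and connecting tubule. The criterion was a Z-ratio beyond 1.96 in both pairs, where the Z-ratio is the difference between the standardized log2 signals of paired arrays divided by the SD of all such differences, which corresponded to a log2 change of about 0.57 in pair 1 and 0.46 in pair 2. Among all genes, 0.509% were higher and 0.234% were lower by this criterion, and 1 of 39 is 2.56%. Another 4 genes, namely Trpv6, Trpm6, Trpm7 and Orai2, passed the limit in exactly 1 pair. That is 10.3% of the 39, against 9.18% of all genes.

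By limma with the pair as a block, 0 of the 39 genes had an adjusted p under 0.05, as had 0% of all genes, and the smallest adjusted p among the 39 was 0.833. Unadjusted p under 0.05 was reached by 4 of them, which were Trpv5, Trpm7, Itpr3 and Atp2b1, all with higher signal in Gak-KO glomeruli. That is 10.3%, against 5.43% of all genes. An unpaired t test on the same values gave an unadjusted p under 0.05 for 0 of the 39. With 2 arrays per group, an exact two-sided permutation test cannot give a p below 0.333.

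As a whole, these genes did not move in 1 direction. The median log2 change of the 39 was 0.03, beside -0.01 for all genes. Signal was higher in both pairs for 13 genes, lower in both for 6, opposite in the pairs for 12 and equal in at least 1 pair for 8. The mean change ran from -0.28 for Slc8a1 to 0.99 for Trpv5. Both Gak-KO arrays lay on the same side of both control arrays for 6 genes, which is 15.4% against 17% of all genes. Trpc2, Trpm7, Orai1, Atp2a1 and Atp2b1 were the genes above, and Atp2b2, a plasma membrane pump best known from neurons and hair cells, was below.

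**Figure D1:**
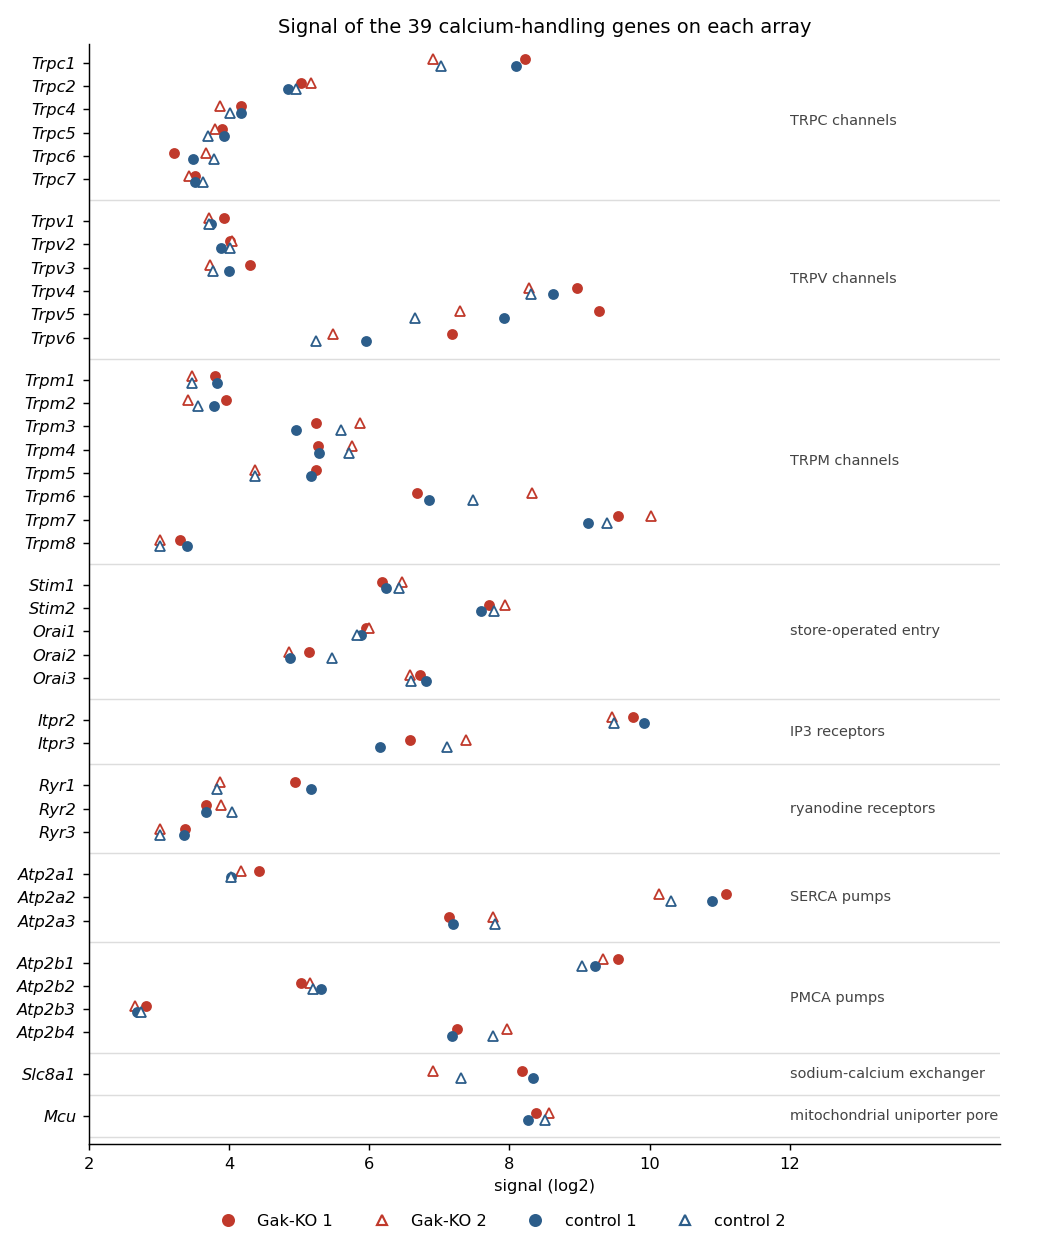
Log2 signal (horizontal axis) of the 39 genes on each array, grouped by role; red marks are Gak-KO arrays and blue marks control arrays, filled circles are arrays 1 and open triangles arrays 2. Trpv5, Trpv6 and Trpm7 have red marks to the right of the blue marks of the same shape, and for most genes circles and triangles lie farther apart than colours do.

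The sequence upstream of the start is shown for the 4 TRP channel genes whose Gak-KO signal was beyond the limit in at least 1 pair and higher there. Each run is the 250 bases before an annotated transcript start, from RefSeq on GRCm38.p6, written 5′ to 3′ in the direction of the gene. Capitals mark the letters TATAAA of a TATA box and AGGTCA of a nuclear receptor half-site on either strand. The Trpv5 window lies at chr6:41680724-41680973 on the minus strand, Trpv6 at chr6:41636406-41636655 on the minus strand, Trpm6 at chr19:18749480-18749729 on the plus strand and Trpm7 at chr2:126876262-126876511 on the minus strand.
Trpv5: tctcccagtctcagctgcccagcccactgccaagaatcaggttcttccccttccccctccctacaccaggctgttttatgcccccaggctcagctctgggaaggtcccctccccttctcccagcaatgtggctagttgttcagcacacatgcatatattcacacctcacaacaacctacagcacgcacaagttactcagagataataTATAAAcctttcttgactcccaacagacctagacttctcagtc
Trpv6: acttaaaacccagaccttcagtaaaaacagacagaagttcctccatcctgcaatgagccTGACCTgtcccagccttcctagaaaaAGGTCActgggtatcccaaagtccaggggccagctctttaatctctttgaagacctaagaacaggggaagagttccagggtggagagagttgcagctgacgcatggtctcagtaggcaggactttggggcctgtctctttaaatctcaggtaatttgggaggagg
Trpm6: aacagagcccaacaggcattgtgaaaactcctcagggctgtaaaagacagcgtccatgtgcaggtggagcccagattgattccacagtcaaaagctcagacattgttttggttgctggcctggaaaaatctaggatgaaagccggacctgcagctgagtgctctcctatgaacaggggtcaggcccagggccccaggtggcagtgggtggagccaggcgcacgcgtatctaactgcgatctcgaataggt
Trpm7: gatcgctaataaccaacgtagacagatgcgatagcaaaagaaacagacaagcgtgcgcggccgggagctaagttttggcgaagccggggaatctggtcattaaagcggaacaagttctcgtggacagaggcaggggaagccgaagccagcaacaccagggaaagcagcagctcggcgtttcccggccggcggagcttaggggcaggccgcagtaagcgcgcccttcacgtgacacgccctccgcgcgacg

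The TATAAA of Trpv5 lay 43 to 38 bases before the start, and the AGGTCA matches of Trpv6 lay 191 to 186 bases before it on the opposite strand and 165 to 160 bases before it on the gene's own strand. The windows differed in CpG content. Trpv5 and Trpv6 had 1 CpG each and Trpm6 had 7, whereas Trpm7, a channel that nearly all cells make, had 26. The median window of all 32851 in the table had 6. Of the 39 genes, 35 had a window (all but Atp2a2, Atp2b3, Ryr3 and Trpm4), and some had more than 1, which made 42 windows. TATAAA occurred in 9.52% of these, against 12.4% of all windows, and AGGTCA in 14.3%, against 14%. Counted by gene, 4 held TATAAA (Trpv5, Trpc4, Trpm2, Trpm8) and 6 held AGGTCA. A match is a run of letters and not a measured site, and the motifs do not overlap.

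Trpv5 read 9.27 and 7.29 on Gak-KO 1 and 2, against 7.93 and 6.65 on control 1 and 2. Signal was higher in Gak-KO glomeruli in both pairs, at 2.54-fold of control in pair 1 and 1.56-fold in pair 2, but Gak-KO 2 lay below control 1. The Z-ratios were 4.37 and 2.59, and the mean log2 change was 0.99 (SE 0.22, 95% interval 0.33 to 1.66, limma adjusted p = 0.833). The difference between the array numbers, 1.63 on the log2 scale with arrays 1 higher, was larger than that between genotypes. With arrays compared without regard to number, leaving out Gak-KO 1 brought the log2 change to 0.0013 and leaving out control 2 brought it to 0.35, and Trpv5 was called in neither case. Nor was it called when all probe sets entered the standardization, where the Z-ratios were 3.12 and 1.84.

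Trpv6, the close relative of Trpv5 that carries calcium in intestine and kidney, read 7.19 and 5.49 on Gak-KO 1 and 2, against 5.96 and 5.24 on control 1 and 2. The change passed the limit in pair 1, at 2.34-fold and a Z-ratio of 4.04, and did not in pair 2, at 1.19-fold and a Z-ratio of 1.02. The mean log2 change was 0.74 (SE 0.29, interval -0.14 to 1.62). Trpv5 and Trpv6 are neighbours on mouse chromosome 6 in the GRCm38.p6 annotation, on the same strand, and in both the larger change was in pair 1 and arrays 1 were the higher ones. The protein-coding genes on either side did not pass the limit in any pair. The log2 change was 0.17 and 0.05 for Ephb6, a receptor of the ephrin family, and that of Llcfc1, on the Trpv5 side, was 0.36 and 0.46 at the 37.4th percentile of signal, just inside the limit in pair 2 with a Z-ratio of 1.91. Kel, which encodes a blood group antigen, had 0.10 and 0.00.

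Distal tubule markers were examined beside these channels. Of 10 distal tubule markers outside the 39, 0 were called in either direction, and their log2 changes ran from -0.21 to 0.26 with a median of 0.16. Their summed linear signal was 29245 and 27726 on Gak-KO 1 and 2, against 25328 and 24640 on control 1 and 2, which is 1.15-fold and 1.13-fold of control in the pairs. The lowest of the 10 was at the 55.4th percentile, so none of them lay near the dim end. Klk1 lay at the 100th percentile and S100g and Slc12a3 at the 99.9th, and whether changes flatten there was not tested. The fold change of Trpv5 was above that of this sum in both pairs. Trpv5 was singled out because it passed the limit in both pairs, so this comparison is no test. The marker list also held Trpv5, Trpm6 and Slc8a1, which are among the 39 and are given apart. The sum is weighted towards its brightest members, Klk1, S100g and Slc12a3. The part of distal tubule cells in the Trpv5 values was not tested.

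Among the single markers, Slc12a3, the thiazide-sensitive cotransporter of the distal convoluted tubule, read 12.04 and 12.77 on the Gak-KO arrays and 11.83 and 12.49 on the control arrays. Calb1 and S100g encode the calbindins that ferry calcium through the cells in which TRPV5 admits it. Calb1 read 11.20 and 11.65 on the Gak-KO arrays and 11.18 and 11.46 on the control arrays. S100g read 12.82 and 12.12 on the Gak-KO arrays and 12.63 and 11.80 on the control arrays. Both were above control in log2 signal in each pair by less than the limit, though the Z-ratio of Calb1 in pair 1 was -0.09. Of the 10 markers, 6 (Calb1, Sgms2, Slc12a3, Tmem72, Wnk1 and Wnk4) were higher on arrays 2 in both groups, as was Trpm6, 2 (S100g and Klk1) were higher on arrays 1 in both groups, as were Trpv5 and Trpv6, and 2 (Emx1 and Pvalb) differed between the groups.

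**Figure D2:**
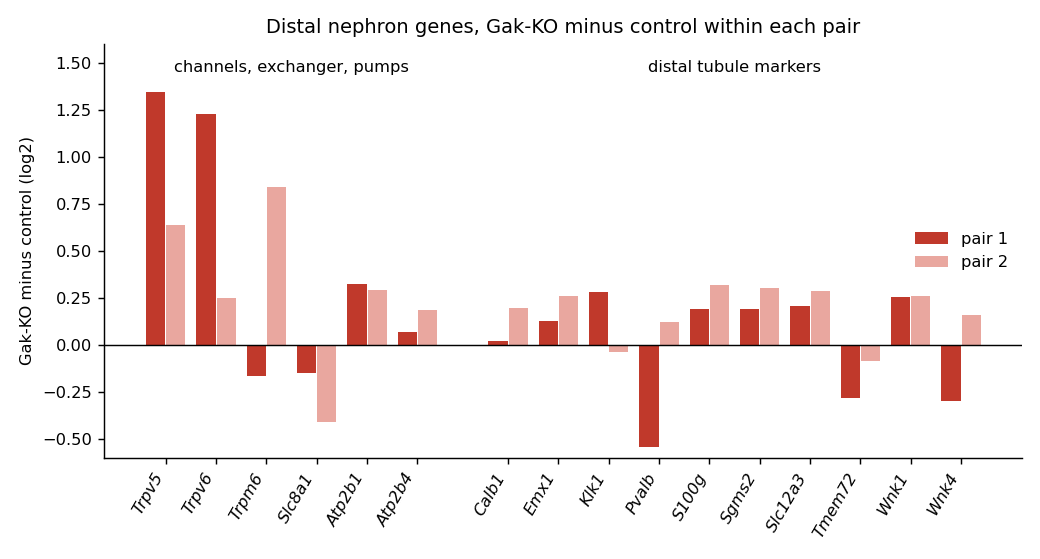
Gak-KO minus control difference in log2 signal (vertical axis) in pair 1 (dark bars) and pair 2 (light bars), for 6 channel, exchanger and pump genes at left and the 10 distal tubule markers outside the 39 at right. Trpv5 (1.35), Trpv6 (1.23) and Atp2b1 (0.33) lie above every marker in pair 1, where the highest is 0.28, and Trpm6 (0.84) and Trpv5 (0.64) do so in pair 2, where the highest is 0.32. Trpv5, Trpv6 and Trpm6 are genes beyond the limit in at least 1 pair, so their height here is no test.

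The exit side of the same transport route gave mixed values. Slc8a1, the sodium-calcium exchanger of many cells and of the basolateral side of distal cells, read 8.19 and 6.91 on Gak-KO 1 and 2, against 8.33 and 7.32 on control 1 and 2. It was below control in both pairs without passing the limit, with Z-ratios of -0.57 and -1.71 and a mean log2 change of -0.28 (SE 0.12, interval -0.64 to 0.09). With arrays compared without regard to number, it was 0.36 without Gak-KO 2 and 0.23 without control 1, but -0.92 without Gak-KO 1 and -0.79 without control 2, where it was called lower. Atp2b1, the PMCA pump found in nearly all cells, read 9.55 and 9.34 on the Gak-KO arrays and 9.23 and 9.04 on the control arrays. Its groups did not overlap, and its log2 change of 0.31 (SE 0.10, interval 0.02 to 0.60) had an unadjusted p of 0.0437 but Z-ratios of 0.97 and 1.11, inside the limit. Atp2b4, the PMCA pump abundant in red cells and smooth muscle, read 7.25 and 7.96 on the Gak-KO arrays and 7.19 and 7.77 on the control arrays, with arrays 2 higher in both groups and a log2 change of 0.13.

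The remaining TRPV genes were not called. Trpv4, a channel opened by swelling and stretch, had the brightest TRPV probe set and read 8.96 and 8.28 on the Gak-KO arrays and 8.63 and 8.31 on the control arrays. It was 1.26-fold of control in pair 1 and 0.981-fold in pair 2. Trpv1, the capsaicin receptor, Trpv2 and Trpv3, a warmth sensor of skin, lay between the 33.1st and 36.7th percentiles, with mean log2 changes of 0.07 to 0.13.

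Of the 8 TRPM genes, Trpm7 and Trpm6 passed the limit in pair 2 alone. They encode channels fused to a kinase that carry magnesium and calcium. Trpm7 read 9.55 and 10.02 on Gak-KO 1 and 2, against 9.12 and 9.40 on control 1 and 2. Both Gak-KO arrays lay above both control arrays, with Z-ratios of 1.30 and 2.47 and a log2 change of 0.53 (SE 0.11, interval 0.19 to 0.86, adjusted p = 0.833 by limma).

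Trpm6, the magnesium channel of the distal convoluted tubule, read 6.69 and 8.32 on Gak-KO 1 and 2, against 6.85 and 7.48 on control 1 and 2. The pairs disagreed. Pair 1 gave -0.16 and pair 2 gave 0.84 on the log2 scale, and the mean of 0.34 had a SE of 0.30. In contrast to Trpv5 and Trpv6, its signal was higher on arrays 2 in both groups, by 1.13 on average.

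Trpm4, a calcium-activated channel for monovalent ions, read 5.27 and 5.75 on the Gak-KO arrays and 5.28 and 5.71 on the control arrays, and its log2 change was 0.02 (interval -0.28 to 0.31). Trpm3 was higher in both pairs by 0.28 and 0.27, within the limit. The others, which were Trpm1 of retinal bipolar cells, the ADP-ribose-gated Trpm2, the taste channel Trpm5 and the cold receptor Trpm8, lay at or below the 48th percentile, with mean log2 changes between -0.05 and 0.03. Trpm1, Trpm5 and Trpm8 had exactly equal values on Gak-KO 2 and control 2.

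**Figure D3:**
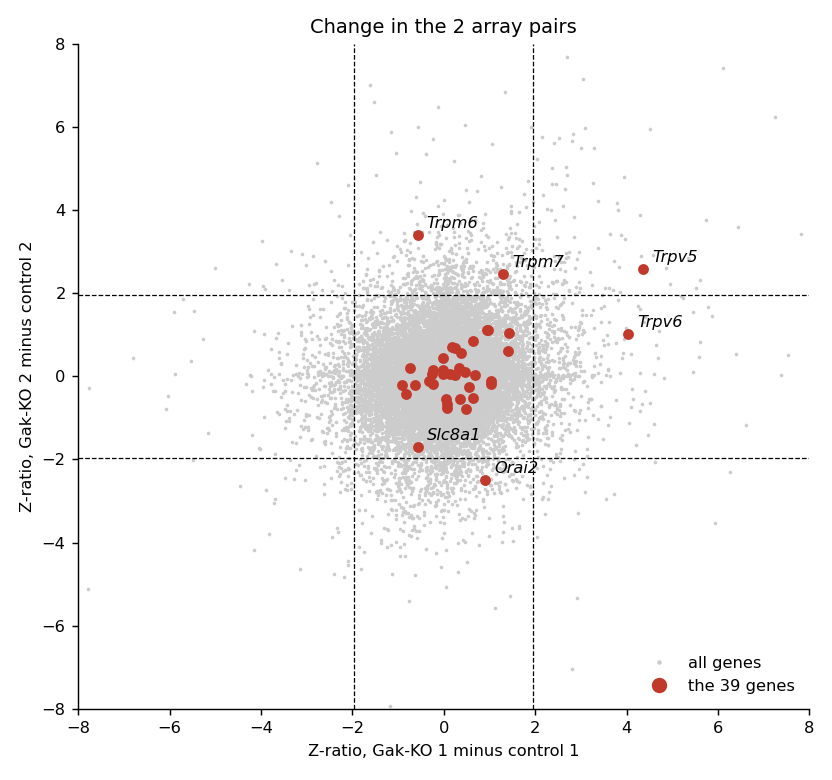
Z-ratio of Gak-KO 1 minus control 1 (horizontal axis) against that of Gak-KO 2 minus control 2 (vertical axis), for the 39 genes (red) and all genes (grey, with 10 genes outside the plotted range); dashed lines mark the limit of 1.96. Trpv5 alone among the red points is beyond the limit on both axes, at 4.37 and 2.59.

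The TRPC genes, which include the channels studied most in podocytes, gave no call. Trpc6, mutated in inherited focal segmental glomerulosclerosis, read 3.22 and 3.67 on Gak-KO 1 and 2, against 3.49 and 3.78 on control 1 and 2. It was below control in both pairs, by 0.27 and 0.11 on the log2 scale, and its mean change of -0.19 had an interval of -0.51 to 0.13. The probe set lay at the 28.2nd percentile of signal, near the dim end of the array.

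Trpc5, a receptor-activated channel also studied in podocytes, read 3.90 and 3.80 on the Gak-KO arrays and 3.93 and 3.70 on the control arrays, at the 34.1st percentile, and its log2 change was 0.04 (interval -0.27 to 0.35). Trpc1, a subunit of receptor-activated and store-operated channels, was the brightest TRPC probe set and read 8.22 and 6.90 on the Gak-KO arrays and 8.09 and 7.03 on the control arrays. Its mean log2 change was 0.00 (interval -0.36 to 0.37), whereas arrays 2 lay below arrays 1 by 1.19. Trpc2, which serves pheromone sensing in the mouse vomeronasal organ, was higher in both pairs by 0.18 and 0.21. Trpc4 and Trpc7, with mean changes of -0.07 and -0.10, had equal values on Gak-KO 1 and control 1.

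Store-operated entry joins STIM1 and STIM2, the sensors of calcium in the endoplasmic reticulum, to the ORAI pores in the plasma membrane. Stim1 read 6.18 and 6.46 on the Gak-KO arrays and 6.24 and 6.42 on the control arrays, with a log2 change of -0.01 (interval -0.32 to 0.29). Stim2 had the highest signal of these 5 genes and read 7.72 and 7.94 on the Gak-KO arrays, against 7.59 and 7.79 on the control arrays. Neither sensor gene was called, and the groups overlapped for both.

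Orai1, the main pore of store-operated entry, read 5.95 and 5.99 on the Gak-KO arrays and 5.88 and 5.82 on the control arrays. The groups did not overlap, but the difference of 0.12 was small beside its interval of -0.18 to 0.42. Orai2 read 5.14 and 4.86 on Gak-KO 1 and 2, against 4.87 and 5.47 on control 1 and 2. The pairs went opposite ways, by 0.26 in pair 1 and -0.61 in pair 2, and only the second was beyond the limit, at a Z-ratio of -2.50. Orai3 changed by -0.09 and -0.02.

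Of the release channels of the endoplasmic reticulum, Itpr2 and Itpr3 were measured among the IP3 receptors. Itpr2 read 9.76 and 9.46 on the Gak-KO arrays and 9.92 and 9.49 on the control arrays, with a log2 change of -0.09 (interval -0.40 to 0.22). Itpr3 read 6.58 and 7.38 on Gak-KO 1 and 2, against 6.15 and 7.11 on control 1 and 2, and was above control in both pairs by 0.44 and 0.26 (Z-ratios 1.43 and 1.03, unadjusted p = 0.0422 by limma). Compared without regard to number, it ran from -0.13 to 0.83 with 1 array left out. The probe sets of Itpr3 disagreed, since its dimmer probe set, with a mean signal of 4.02, was below control in both pairs, by 0.13 and 0.12.

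The ryanodine receptors, best known from skeletal muscle, heart and brain, lay below the median signal of all genes. Ryr1, the brightest of them, read 4.94 and 3.87 on the Gak-KO arrays and 5.17 and 3.83 on the control arrays. Its mean log2 change was -0.10, and arrays 1 were higher than arrays 2 in both groups. Ryr2 had equal values on Gak-KO 1 and control 1, and Ryr3 on Gak-KO 2 and control 2.

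The SERCA pumps return calcium to the endoplasmic reticulum. Atp2a2, the form made in most cells and in heart, read 11.09 and 10.14 on Gak-KO 1 and 2, against 10.89 and 10.30 on control 1 and 2. It lay at the 99.2nd percentile, and its log2 change was 0.02 (interval -0.41 to 0.44), with the pairs on opposite sides of 0. Atp2a1 of fast skeletal muscle lay at the 39.7th percentile and was higher in both pairs by 0.41 and 0.14, and Atp2a3 changed by -0.06 and -0.03. Mcu, the pore through which mitochondria take up calcium, read 8.39 and 8.57 on the Gak-KO arrays and 8.26 and 8.50 on the control arrays, a log2 change of 0.09 (interval -0.20 to 0.39). None of these 4 genes was called. Atp2b3, a PMCA pump of brain, had the dimmest probe set of the 39, at the 10.1st percentile.

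The array number separated these genes more than the genotype did, as it did most genes. The median of all probe sets was 4.32 on Gak-KO 1 and 4.28 on control 1, but 4.14 on Gak-KO 2 and 4.13 on control 2. The part of this shift in the differences below was not tested. The mean difference between arrays 2 and arrays 1 was larger than that between genotypes for 31 of the 39 genes, or 79.5%, against 73.9% of all genes. The median size of the difference was 0.36 between array numbers and 0.10 between genotypes for the 39, and 0.25 and 0.11 for all genes. Arrays 1 were higher by more than 1 on the log2 scale for Trpv5, Trpv6, Ryr1, Trpc1 and Slc8a1, and arrays 2 were higher by more than 1 for Trpm6. Any gene that differs between the array numbers also follows the podocyte or the proximal tubule signal given above. The part of that signal in these differences was not tested.

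**Figure D4:**
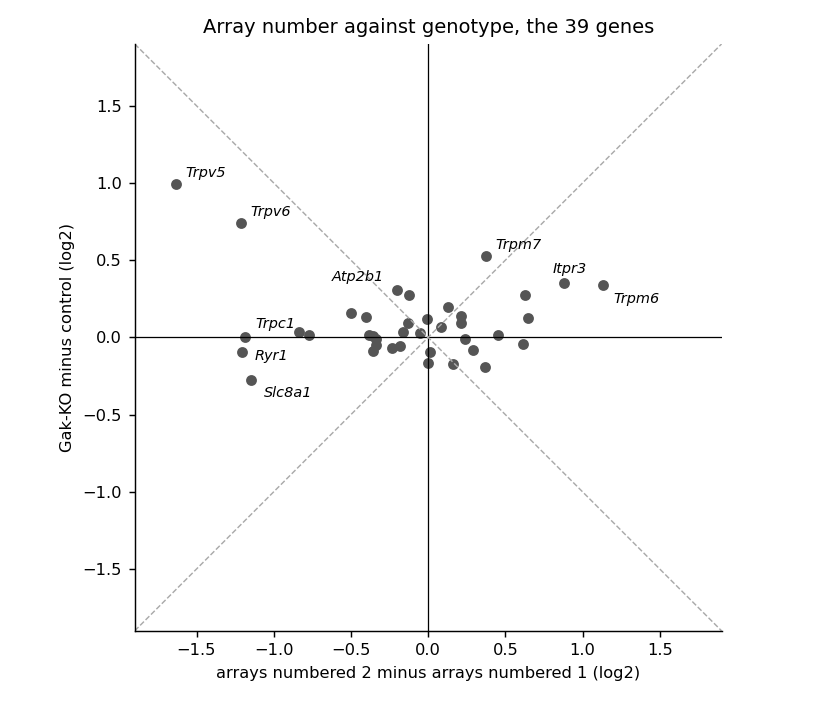
Mean difference between arrays 2 and arrays 1 (horizontal axis, log2) against the mean Gak-KO minus control difference (vertical axis, log2) for each of the 39 genes; on the dashed diagonals the differences are equal in size. Of the 39 points, 31 lie in the left and right sectors, where the array number differs more than the genotype, Trpv5 among them.

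Other parts of calcium handling were counted in 10 lists with 119 further genes, of which 105 were measured. Of these, 0 were higher and 0 lower by the Z-ratio in both pairs, against 0.509% and 0.234% of all genes. Beyond the limit in 1 pair were 6, which is 5.71%, against 9.18% of all genes. By limma, 3 had higher signal at an unadjusted p under 0.05, which is 2.86%, against 2.89% of all genes. Lower signal at that p was seen for 1, against 563 of all 22180 genes, and 0 had an adjusted p under 0.05. The median log2 change was 0.01. Among other cation channels, Mcoln3, a lysosomal TRP channel, read 8.14 and 9.93 on Gak-KO 1 and 2, against 9.24 and 9.99 on control 1 and 2, and only the change in pair 1 was beyond the limit. Trpa1, a sensor of irritants, was also beyond it in pair 1 alone, with lower signal, at the 13.7th percentile. Piezo1, a mechanically gated channel, read 8.96 and 8.97 on the Gak-KO arrays and 8.21 and 8.68 on the control arrays, with Z-ratios of 2.37 and 1.10.

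P2rx1, an ATP-gated channel known from smooth muscle and platelets, read 7.33 and 6.43 on the Gak-KO arrays and 6.59 and 6.16 on the control arrays, with Z-ratios of 2.41 and 1.09. P2rx2, the next in its list, had a mean log2 change of -0.21. In the same samples, 2 of 11 smooth muscle and mesangial markers, Mcam and Tagln, were called higher, against 0.509% of all genes. Signal was higher in both pairs for 6 of the 11, lower in both for 3 (Notch3, Pdgfra and Pdgfrb) and opposite for 2 (Cnn1 and Myh11). Their summed signal was 2548 and 2650 on the Gak-KO arrays, against 1803 and 2128 on the control arrays. The part of these cells in the P2rx1 values was not tested. Cacna2d2, an auxiliary subunit of voltage-gated calcium channels, read 4.63 and 4.46 on the Gak-KO arrays and 5.24 and 4.87 on the control arrays, with Z-ratios of -1.98 and -1.65, and Cacnb4, another such subunit, had a mean log2 change of -0.22.

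In the remaining lists no gene was called by the Z-ratio. Slc8b1, the mitochondrial sodium-calcium exchanger, changed by 0.42 and 0.29 in the pairs. Its mean log2 change of 0.35 had an unadjusted p of 0.0362 and an adjusted p of 0.833 by limma. Slc24a1, a potassium-dependent exchanger of photoreceptors, changed by -0.07 and -0.34. Among calcineurin and NFAT genes, Rcan2, an inhibitor of calcineurin, changed by -0.51 and -0.08, Nfatc1 by 0.26 and 0.27, and Nfatc4 by 0.00 and -0.53, of which -0.53 was beyond the limit. Among regulators of the store, Tmco1, a calcium leak channel of the endoplasmic reticulum, changed by -0.39 and -0.16, and Hspa5, its major chaperone, by 0.30 and 0.11. The partners of the uniporter moved least far, between -0.16 for Mcur1 and 0.17 for Micu3. In phospholipase C and IP3 metabolism Inpp5a and Plcb4 both changed by 0.19 on average, and among CaM kinases Camk1g changed by -0.23 and Camk2d by 0.12. Of the calcium-binding proteins besides S100g, Pvalb, the parvalbumin of early distal convoluted tubule, changed by -0.54 and 0.12.

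**Figure D5:**
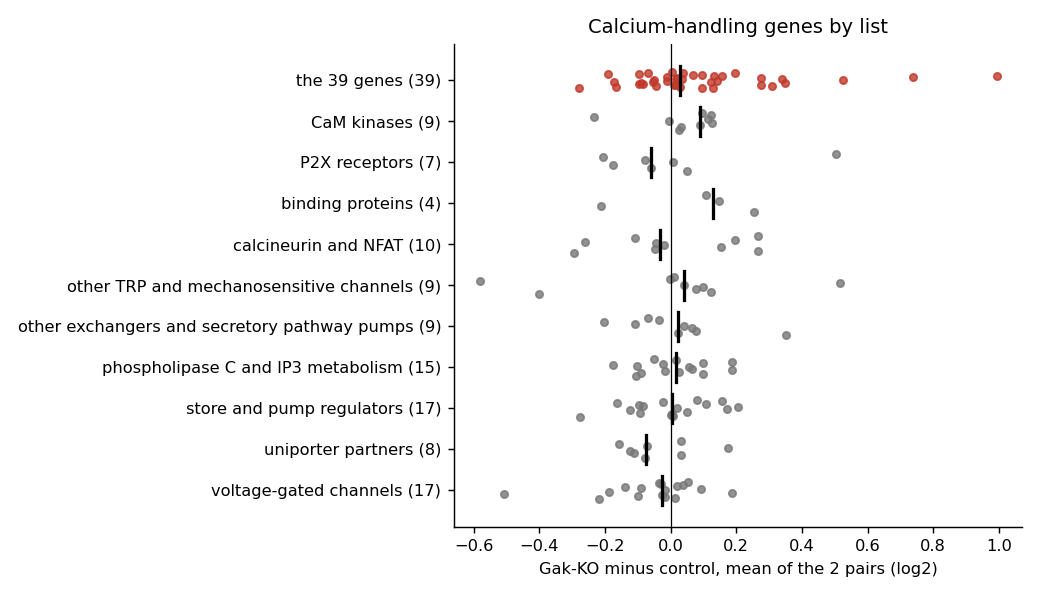
Mean Gak-KO minus control difference in log2 signal (horizontal axis) of each gene, for the 39 genes (red) and 10 further calcium lists (grey), with the number of measured genes in parentheses and the median as a black bar. In the further lists the values run from -0.58 (Mcoln3) to 0.51 (Piezo1), and the medians from -0.07 to 0.13.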

How the data were processed

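The authors deposited log2 signals of 41345 probe sets, made with RMA, which corrects background, normalizes arrays and summarises probes. Whether RMA was run on all arrays together or on each pair separately was not tested. The tool version, annotation release and genome build are not given in the sources used here, and the methods name another array type than the probe set identifiers show. Gene symbols came from the platform annotation. Of the probe sets, 23521 carried 1 symbol and were used, 1820 carried several and 16004 none. The members and lists were chosen with earlier results of these data known.

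The array number defined the pairs. The supplement of the study gives Z-ratios for 2 batches, and that these batches are the array numbers was assumed. Arrays that share a number deviated together from their groups, with a correlation of 0.694 over all genes, and Gak-KO and control values were exactly equal for 1421 probe sets in pair 1 and 3735 in pair 2, against 0 between different numbers. Z-ratios used the limit of 1.96. Log2 changes, SEs and p values came from limma (version 3.58.1, R version 4.3.3), in which the pair was a block, with Benjamini-Hochberg adjustment over 22180 genes, with 1 residual degree of freedom and 2.24 from moderation. Intervals cover 95% and are unadjusted. Both procedures were tested on simulated data that held no differences between array numbers, so their behaviour under such differences was not tested. Replicates were pools of 3 mice, and the number of arrays limits the precision.

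Every gene measured was counted, and 1 item is not reported here. Of the 39, values per array are given for genes called or beyond the limit in 1 pair, for the brightest of each role and for channels and pumps picked by name. Of each further calcium list, the 2 genes with the largest mean changes are named. Trpa1, Nfatc4 and the flanking genes of Trpv5 were named after their values were seen. Upstream sequences were RefSeq's, with motifs sought by Python 3.11. Alternatives were quantile normalization, median centring, the mean of a gene's probe sets, all probe sets, leaving out genes below the 30th percentile, a robust scale, a limit of 2.58, an intensity trend, an unpaired t test, no block, and leaving out pairs or arrays.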

Additional observations from a re-analysis of the deposited data

Results flagged for a closer look

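Trpm6 and Orai2 differed between the pairs, in that the pairs moved in opposite directions with 1 of them beyond the limit, and the difference between pairs was not tested. Trpm6 changed by -0.16 on the log2 scale in pair 1 and by 0.84 in pair 2. Orai2 changed by 0.26 in pair 1 and by -0.61 in pair 2. The pairs carry different sex labels and numbers and may have been processed separately, and these cannot be told apart.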

How the results depend on the processing

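Trpv5 was called under quantile normalization, median centring, the mean of probe sets, the filter on low signal, the robust scale and the stricter limit. It was not called when all probe sets entered the standardization (0 genes higher, with Z-ratios of 3.12 and 1.84). Without the replicate block 3 of the 39 genes were higher (Trpv5, Trpv6 and Trpm7) by 1 mean comparison, and leaving out arrays or pairs gave 2 to 3 higher and 0 to 2 lower. Limma called 0 of the 39 in every setting. Over all genes, the counts higher were 273 with all probe sets, 240 with the robust scale, 48 with the stricter limit, 649 without the replicate block and 595 to 667 with arrays left out, against 113. The counts lower were 151 with the robust scale, 11 with the stricter limit, 550 without the block and 511 to 666 with arrays left out, against 52. The unpaired t test called 1 gene, and limma 0 to 1 with arrays left out. Leaving out arrays or pairs moved the log2 change of Trpv6 between -0.11 and 1.59, of Trpm6 between -0.48 and 1.16 and of Orai2 between -0.61 and 0.26. Leaving out 1 array turned the sign of the log2 change for 29 of the 39 genes and leaving out 1 pair for 12. Of the 5 genes beyond the limit in at least 1 pair, Trpv6 turned without Gak-KO 1 (-0.11), Trpm6 without Gak-KO 2 (-0.48) or pair 2 (-0.16), and Orai2 without control 2 (0.13) or pair 2 (0.26). With 1 array left out, arrays of different numbers are compared, so the difference between numbers enters, and an arm of 1 array was assumed to vary like the other. The filter on low signal left out 5 of the 39. Signal near the dim end limits Trpc6, Trpc5 and the ryanodine receptors.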
